A study of Homo sapiens with 6 samples.

Results

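WNT signalling was examined through 48 genes, most of the extracellular and receptor level of the pathway, in a rhabdomyosarcoma cell line after knockdown of GLI1. The members were 19 WNT ligands, 10 Frizzled receptors, 10 secreted antagonists, 2 LRP co-receptors and 7 feedback or nuclear genes. They were taken by name, through Entrez gene number, from a table of 25702 genes, and all 48 were listed there. RMS13 is an established human line of rhabdomyosarcoma, a tumour that expresses skeletal muscle genes. The cells of group siGLI1 received a small interfering RNA (siRNA) against GLI1 and those of group siNT2 a non-targeting siRNA, with RNA taken at 72 h in both. There were 3 libraries in each group, all of the same line grown in RPMI with fetal bovine serum. The labels give neither the siRNA sequences nor whether the replicates were separate cultures, so the p-values reflect how far these libraries differ among themselves, and that spread may be technical.

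WNT proteins are secreted, lipid-modified ligands that bind the cysteine-rich domain of Frizzled receptors. In the canonical branch a Frizzled and an LRP co-receptor together stop the destruction of beta-catenin, which then acts with TCF and LEF factors on target genes, among them AXIN2, ZNRF3 and RNF43, which feed back on the pathway. Other ligands, WNT5A and WNT11 among them, are best known for branches that act on cell polarity and calcium. Secreted Frizzled-related proteins (SFRPs) carry a Frizzled-like domain and can bind WNT ligands, and Dickkopf proteins such as DKK1 act on LRP co-receptors. In the embryo WNT signals from neighbouring tissues take part in the induction of skeletal muscle, together with Hedgehog signals, of which GLI1 is a transcription factor and a target gene.

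GLI1, the targeted gene, had 579.9, 906 and 1274 normalised reads in the siGLI1 libraries, against 11962, 17837 and 12774 in the siNT2 libraries. Its siGLI1 mean was 6.48% of the siNT2 mean, with a log2 fold change of -4.0 ± 0.29 (SE, adjusted p = 0.000425, limma). A normalised read count is the deposited value, which is the read count of a gene divided by the size factor of its library. The libraries held 13784642 to 15477041 reads in siGLI1 and 13673977 to 18947614 in siNT2, and 3 reads, the most that a count of 0 allows, were worth 2.39 to 3.29 normalised reads; this floor covers counting error only. Muscle markers were present in all libraries, with MYOD1 at a mean of 17142 in siGLI1 and 17462 in siNT2, and of the 8 listed 1, MYF5, was at or below the floor throughout. Of the 7 tested muscle markers 2 were higher, DES (log2 fold change 0.97, adjusted p = 0.0153, limma) and CHRNA1 (0.62, adjusted p = 0.0112, limma). DES lost its call without siNT2 replicate 1 (adjusted p = 0.0535), and CHRNA1 lost it without siGLI1 replicate 2 (0.0696) or siNT2 replicate 1 (0.0596). Epithelial markers summed to 97.2 to 103 normalised reads in siGLI1 and 128 to 158 in siNT2, blood markers to 20.5 to 45.4 in siGLI1 and 15.2 to 18.7 in siNT2, and neural markers to 20.5 to 30.7 in siGLI1 and 19.1 to 43.6 in siNT2, with 3 of 6, 4 of 6 and 3 of 6 of these lists at or below the floor throughout. Fibroblast markers summed to 564 to 592 in siGLI1 and 424 to 556 in siNT2, with COL1A2 (log2 fold change 2.79, adjusted p = 0.00593) and LUM (0.96, adjusted p = 0.0484) higher of 5 tested by limma. COL1A2 had 31.3, 36.8 and 30.6 normalised reads in siGLI1 and 3.29, 2.03 and 7.97 in siNT2. In siNT2 replicates 1 and 2 it was at or below the floor, so the size of its fold is uncertain. LUM lost its call without any 1 of the 6 libraries (adjusted p = 0.0555 to 0.195), with no filter (0.0685), after GC correction (0.0642) and in DESeq2 (0.0779). COL1A1 had 158, 185 and 259 normalised reads in siGLI1 and 131, 115 and 82.9 in siNT2, without overlap. Its log2 fold change of 0.86 did not pass in limma (adjusted p = 0.0569), but passed in DESeq2 (0.0115) and after GC correction (0.0028). PDGFRA (-0.25, adjusted p = 0.527, limma) and THY1 (0.01, adjusted p = 0.984, limma) overlapped between the groups. DCN, a further fibroblast marker, was not tested and had at most 3.99 normalised reads in any library. Endothelial markers summed to 109 to 119.5 in siGLI1 and 28.7 to 38.5 in siNT2, and of these PECAM1 had 86.4, 81.8 and 90.9 normalised reads in siGLI1 and 13.2, 14.2 and 5.58 in siNT2. PECAM1 was the only endothelial marker tested and was higher (log2 fold change 2.96, adjusted p = 0.00226, limma). It kept its call with each library left out in turn (largest adjusted p = 0.0199). Without PECAM1 the other 4 endothelial markers summed to 22.7 to 28.6 in siGLI1 and 23.1 to 24.3 in siNT2, so the groups were apart with PECAM1 and overlapped without it. The part of other cells, or of fewer cells of one kind against less RNA per cell, in the differences given here was not tested, and in bulk RNA the last pair cannot be told apart.

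Of the 48 members, 27 averaged at least 10 normalised reads over the 6 libraries and were tested. In siGLI1 the antagonist SFRP4, the receptor FZD4 and the Dickkopf family member DKK3 were higher, and the ligand WNT11 and the receptor FZD8 were lower. The other 22 tested members did not pass an adjusted p of 0.05, 9 with positive and 13 with negative fold changes. The 5 called members make up 18.5% of those tested, beside 15.2% of all 15622 tested genes (7.21% higher and 8.0% lower), so the share of members called was near that of all genes. The median log2 fold change was -0.02 over the 27 members and -0.01 over all tested genes. The libraries of the groups did not overlap in 11 of the tested members (40.7%), beside 36.2% of all tested genes.

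**Figure D1:**
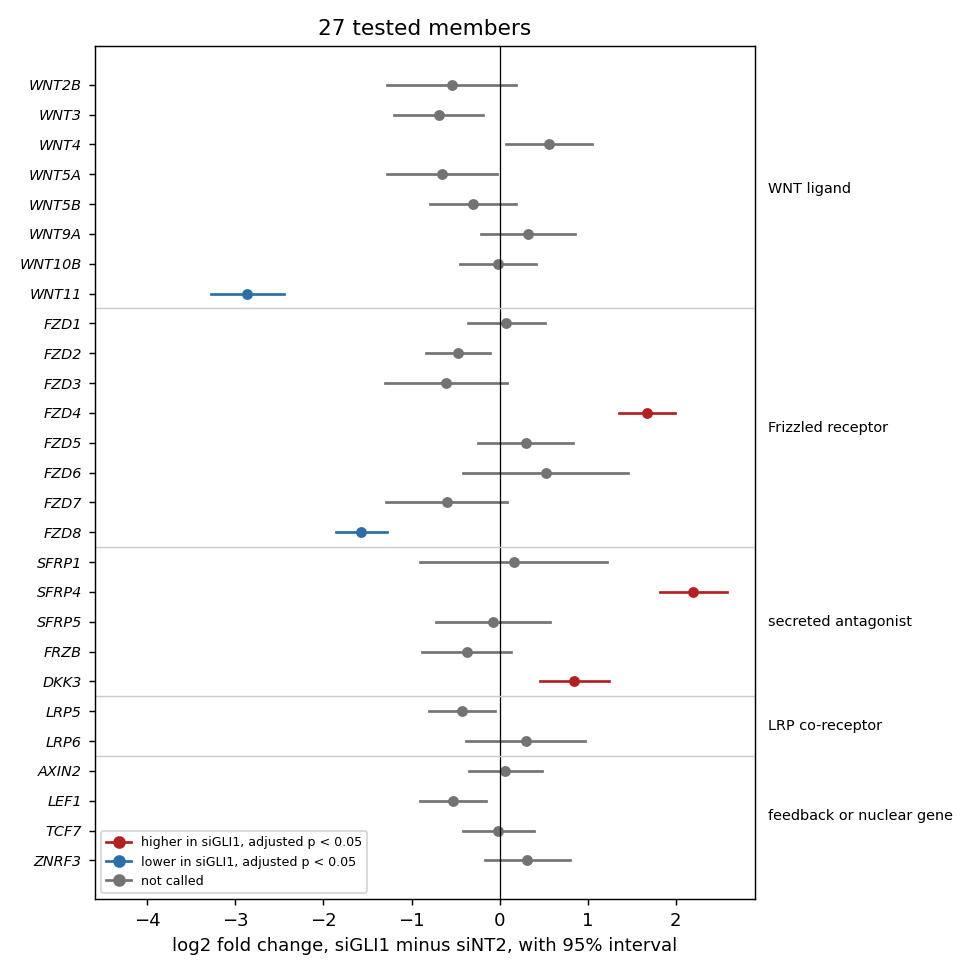
The plot gives the log2 fold change of each of the 27 tested members, taken on log2(value + 1) as siGLI1 minus siNT2, with its 95% interval from limma, by role. WNT11 (-2.86) and FZD8 (-1.57) lie to the left and SFRP4 (2.20), FZD4 (1.67) and DKK3 (0.85) to the right with adjusted p under 0.05, and the other 22 members are grey.

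Among the 19 ligands 8 were tested, and WNT11 was lower. WNT11, a ligand best known from cell movement and polarity, and in chick embryos from the orientation of muscle fibres, had 44.3, 51.1 and 58.3 normalised reads in siGLI1, against 333, 395 and 408 in siNT2. Every siGLI1 library lay far below every siNT2 library, and the siGLI1 mean was 13.5% of the siNT2 mean (51.2 ± 7.0 against 379 ± 40.2, SD, n = 3 each). The log2 fold change was -2.86 ± 0.18 (SE, 95% interval -3.28 to -2.45, adjusted p = 0.000277, limma), the largest in size among the tested members. Leaving out each library in turn kept it between -2.96 and -2.77. Per length, as RPKM (reads divided by the length of the longest transcript and by the depth of the library), WNT11 averaged 1.78 ± 0.22 in siGLI1 and 12.8 ± 1.27 in siNT2, and it was the second of the ligands in siNT2. In siGLI1 it was the fifth, within the spread of its neighbours WNT4 (1.81 ± 0.22) and WNT3 (1.72 ± 0.24). WNT11 shares exon sequence with an antisense transcript in GENCODE, as do WNT4, LGR5, TCF7L2 and CTNNBIP1 below, so reads of these overlaps cannot be told apart. The same holds for WNT2B, FZD6 and DKK1, which overlap a gene on the opposite strand. FZD8, AXIN2, RNF43 and CSNK1G1 share exon sequence with another gene on the same strand, which counting by strand would not separate.

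WNT5B, a relative of WNT5A, was the most abundant ligand per length in both groups, at 30.5 ± 5.70 in siGLI1 and 36.8 ± 7.34 in siNT2. Its normalised counts of 922, 929 and 1306 in siGLI1 overlapped those of 1205, 1625 and 1065 in siNT2, and the difference of -0.30 on the log2 scale (95% interval -0.79 to 0.19) did not pass the test (adjusted p = 0.37, limma). WNT5A had 592, 529.6 and 329.9 normalised reads in siGLI1 and 742, 575 and 951 in siNT2, with 1 siGLI1 library above the lowest siNT2 library. Its log2 fold change was -0.66 (95% interval -1.28 to -0.03, adjusted p = 0.14, limma). After correction of each library for GC content the value was -0.76, with an adjusted p of 0.00743.

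WNT3, a canonical ligand, had 90.7, 93.0 and 74.1 normalised reads in siGLI1 and 126, 118 and 180.2 in siNT2. The groups did not overlap, but the log2 fold change of -0.69 (95% interval -1.19 to -0.19) did not pass the limma test (adjusted p = 0.0694). It passed in DESeq2 (adjusted p = 0.0348) and after GC correction (adjusted p = 0.0405), and not in edgeR (adjusted p = 0.0654). WNT4, which acts in kidney and gonad development, was also apart, with 103, 114 and 93.8 normalised reads in siGLI1 against 64.8, 88.2 and 59.0 in siNT2. Its log2 fold change was 0.56 (95% interval 0.08 to 1.05, adjusted p = 0.111, limma) and 0.72 after GC correction (adjusted p = 0.0206). WNT10B, a canonical ligand, had 79.9, 94.1 and 111 normalised reads in siGLI1 and 87.8, 102 and 96.5 in siNT2, so the groups overlapped, with a log2 difference of -0.02 (95% interval -0.46 to 0.41). The remaining tested ligands, WNT9A (0.32, adjusted p = 0.371, limma) and WNT2B (-0.55, adjusted p = 0.281, limma), also overlapped between the groups.

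Summed per length, the 19 ligands came to 43.2, 43.9 and 51.6 RPKM in siGLI1, against 62.3, 71.9 and 63.2 in siNT2. Without WNT11 the sums were 41.6, 42.1 and 49.6 in siGLI1 and 50.8, 58.9 and 49.2 in siNT2. The sums of the groups were apart with WNT11 and overlapped without it. WNT11 made up 3.84 ± 0.27% of the ligand sum in siGLI1 and 19.6 ± 2.25% in siNT2 (SD, n = 3 each), and WNT5B 65.7 ± 5.42% in siGLI1 and 55.6 ± 7.02% in siNT2. No test was made of the sums or shares, and a share also moves with the other genes in the sum.

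**Figure D2:**
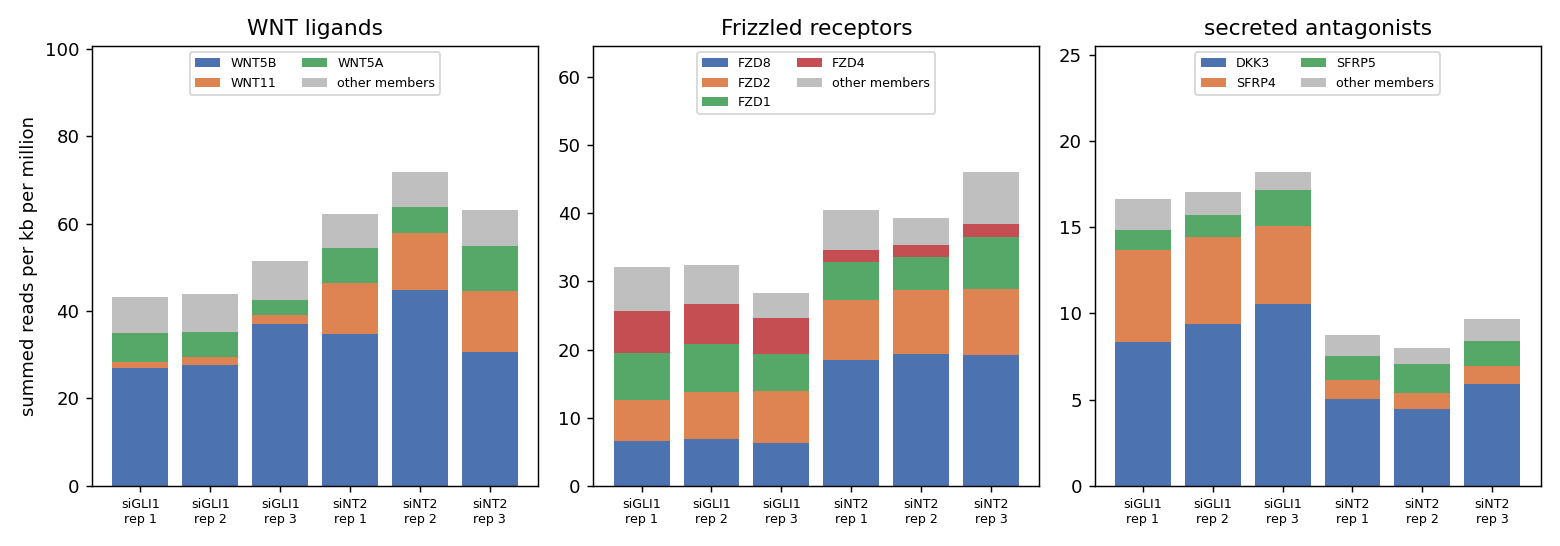
Stacked bars give, for each library, the summed level of the ligands, the Frizzled receptors and the secreted antagonists in RPKM over the longest transcript, with siGLI1 libraries on the left of each panel. WNT11 narrows in the siGLI1 bars of the ligands, FZD8 narrows and FZD4 widens in those of the receptors, and the antagonist bars are 16.6 to 18.2 in siGLI1 against 8.01 to 9.69 in siNT2.

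Among the 10 Frizzled receptors 8 were tested, of which FZD4 was higher and FZD8 lower. FZD8 had 392, 406 and 384 normalised reads in siGLI1, against 1119, 1225 and 1171 in siNT2. The 3 siGLI1 libraries lay close together and below all siNT2 libraries, at 33.6% of the siNT2 mean (394 ± 11 against 1172 ± 53.1). The log2 fold change was -1.57 ± 0.12 (SE, 95% interval -1.85 to -1.28, adjusted p = 0.000544, limma), and leaving out each library in turn gave -1.60 to -1.54. Per length FZD8 was the most abundant Frizzled in siNT2, at 6.55 ± 0.32 in siGLI1 and 19.0 ± 0.46 in siNT2. In siGLI1 its mean was the second after FZD2, within the spread of FZD2 (6.89 ± 0.77) and FZD1 (6.41 ± 0.82).

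FZD4, a receptor for WNT ligands and also for norrin, best known from the growth of retinal vessels, had 683, 635 and 596 normalised reads in siGLI1, against 189, 196 and 214 in siNT2. Every siGLI1 library was above every siNT2 library, and the mean was 3.20-fold higher in siGLI1 (638 ± 43.6 against 199 ± 12.8). The log2 fold change was 1.67 ± 0.14 (SE, 95% interval 1.35 to 1.99, adjusted p = 0.000652, limma), with 1.62 to 1.72 when each library was left out. FZD4 shares exon sequence with PRSS23 on the opposite strand, and whether reads were counted by strand is not given in the sources used here, so reads of the overlap cannot be told apart. PRSS23 had 52.9, 45.0 and 29.6 normalised reads in siGLI1 and 13.2, 5.07 and 17.5 in siNT2, far fewer than FZD4 in each library. Its log2 fold change was 1.86 ± 0.45 (adjusted p = 0.0311, limma) and lost its call without siGLI1 replicate 1 (adjusted p = 0.0724), siGLI1 replicate 2 (adjusted p = 0.127) or siNT2 replicate 1 (adjusted p = 0.0790).

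The promoters of FZD8, FZD4 and SFRP4, 3 of the members with the largest differences, are printed here from 250 bases before to 50 bases after the start, from RefSeq, build GRCh38.p14, each on the minus strand, since GLI, TCF and LEF factors bind DNA in promoters and enhancers. FZD8 is at chr10:35642247-35642546, FZD4 at chr11:86955346-86955645 and SFRP4 at chr7:37916768-37917067. A match to any of the motifs below would stand in capitals, and there is none.
FZD8: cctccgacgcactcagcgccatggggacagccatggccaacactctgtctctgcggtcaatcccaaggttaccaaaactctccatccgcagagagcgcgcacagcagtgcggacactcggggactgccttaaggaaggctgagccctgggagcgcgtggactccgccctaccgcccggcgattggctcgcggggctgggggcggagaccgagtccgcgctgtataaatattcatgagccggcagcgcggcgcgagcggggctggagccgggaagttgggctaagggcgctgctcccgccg
FZD4: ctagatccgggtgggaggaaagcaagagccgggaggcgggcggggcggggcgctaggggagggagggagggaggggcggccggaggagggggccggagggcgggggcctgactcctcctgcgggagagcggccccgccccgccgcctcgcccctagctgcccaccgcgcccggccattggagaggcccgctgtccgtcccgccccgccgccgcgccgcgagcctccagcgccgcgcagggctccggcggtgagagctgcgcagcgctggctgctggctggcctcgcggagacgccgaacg
SFRP4: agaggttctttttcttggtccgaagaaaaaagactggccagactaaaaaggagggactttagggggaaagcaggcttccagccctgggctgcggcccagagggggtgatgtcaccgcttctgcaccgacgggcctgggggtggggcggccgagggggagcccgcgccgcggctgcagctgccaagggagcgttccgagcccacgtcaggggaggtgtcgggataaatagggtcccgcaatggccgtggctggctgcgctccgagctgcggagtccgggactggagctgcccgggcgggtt
The FZD8 promoter held 67% G and C with 31 CpG dinucleotides, that of FZD4 79.7% with 40, and that of SFRP4 66.3% with 23. The medians of all 35116 promoters in the table were 58.7% and 14, so all of these were above the median in both measures. Both strands were searched for GACCACCCA, the GLI consensus, for its core CCACCCA, which lies within it, and for CTTTGAA and CTTTGTT, 2 forms of the TCF and LEF site. They occur in 0.236%, 9.19%, 4.43% and 5.2% of all promoters, in that order. Of the 32 members with a promoter in the table, TCF7 and SFRP5 had CCACCCA, DKK1 had CTTTGAA and CTTTGTT, and TCF7 and WNT3 had CTTTGTT. WNT11 and DKK3, the other called members, had no promoter there and were not searched. No match says only that these letters are not in this window.

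FZD2 had 192, 214 and 247 normalised reads in siGLI1, against 280.0, 313 and 309 in siNT2. The groups did not overlap, and the log2 fold change of -0.47 (95% interval -0.83 to -0.11) did not pass the test (adjusted p = 0.0826, limma) except without siGLI1 replicate 3 (adjusted p = 0.0457). FZD1 overlapped between the groups, with 703, 711 and 582 normalised reads in siGLI1 and 586, 529 and 799.8 in siNT2 and a log2 difference of 0.08 (95% interval -0.36 to 0.51). FZD3, known from axon guidance and polarity, had 119.9, 107 and 66.2 normalised reads in siGLI1 and 158, 103 and 186 in siNT2, also overlapping. Its log2 fold change was -0.61 (adjusted p = 0.21, limma), and -0.85 after GC correction (adjusted p = 0.00319). FZD7, a receptor known in mouse muscle stem cells as a partner of WNT7A, differed by -0.60 on the log2 scale (95% interval -1.29 to 0.09, adjusted p = 0.209, limma). FZD5 (0.29, adjusted p = 0.421, limma) and FZD6 (0.52, adjusted p = 0.414, limma) overlapped between the groups as well.

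Summed per length, the 10 Frizzled genes came to 32.1, 32.4 and 28.3 in siGLI1, against 40.5, 39.3 and 46.1 in siNT2. Without FZD8 the sums were 25.5, 25.5 and 22.1 in siGLI1 and 22.0, 20.0 and 26.9 in siNT2. The groups were apart with FZD8 and overlapped without it. The sum without FZD8 still held FZD4, the other called receptor, which was higher in siGLI1. Without FZD4 the sums were 25.8, 26.5 and 23.0 in siGLI1 and 38.8, 37.6 and 44.2 in siNT2, and no sum without both was taken. FZD8 made up 21.2 ± 0.83% of the Frizzled sum in siGLI1 and 45.5 ± 3.78% in siNT2. FZD4 made up 18.7 ± 0.61% in siGLI1 and 4.22 ± 0.07% in siNT2. In siNT2 FZD8 alone was thus the main Frizzled transcript per length, and in siGLI1 FZD2, FZD8, FZD1 and FZD4 each held between 18.7% and 22.5% of the sum.

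**Figure D3:**
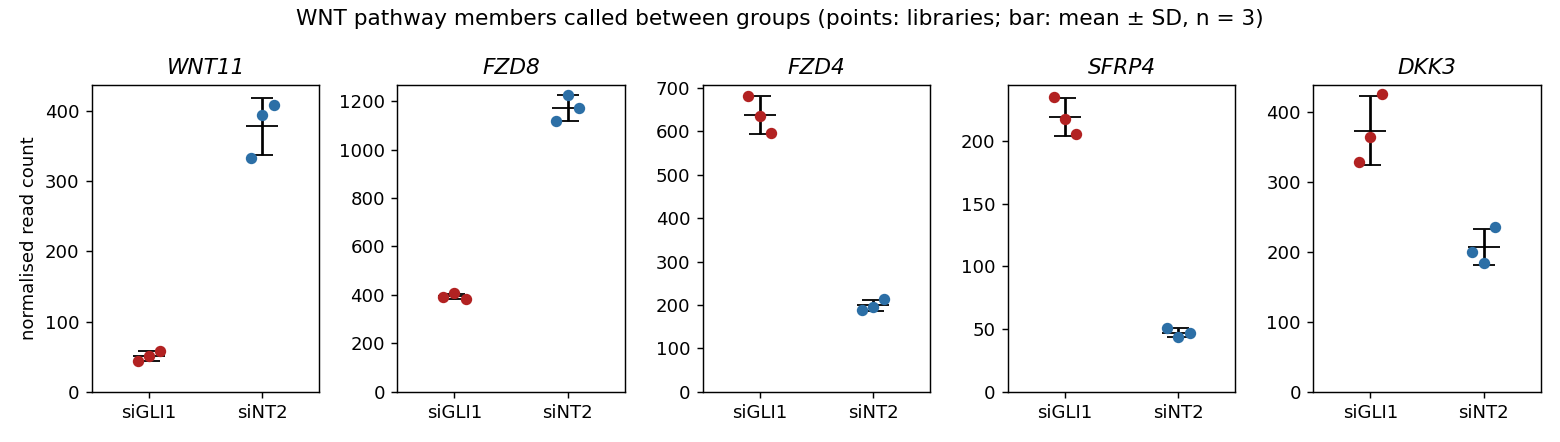
Points are the normalised read counts of the 3 siGLI1 and 3 siNT2 libraries for the 5 members with an adjusted p under 0.05, and bars are the mean ± SD, each panel from 0. In every panel all libraries of one group lie on one side of the other: WNT11 and FZD8 below siNT2, and FZD4, SFRP4 and DKK3 above it.

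Among the 10 secreted antagonists 5 were tested, of which SFRP4 and DKK3 were higher. SFRP4, a secreted Frizzled-related protein, had 235, 218 and 205 normalised reads in siGLI1, against 50.5, 43.6 and 47.0 in siNT2. All siGLI1 libraries were above all siNT2 libraries, and the mean was 4.67-fold higher (219.5 ± 15.1 against 47.1 ± 3.45). The log2 fold change was 2.20 ± 0.16 (SE, 95% interval 1.82 to 2.58, adjusted p = 0.000474, limma), and 2.15 to 2.25 with each library left out. SFRP4 was the second antagonist per length in siGLI1 (4.96 ± 0.40) and the third in siNT2 (1.04 ± 0.10).

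DKK3 is a member of the Dickkopf family that, unlike DKK1, is not established as an LRP inhibitor. It had 329, 364 and 427 normalised reads in siGLI1, against 199.8, 185 and 235 in siNT2. The groups did not overlap, and the mean was 1.81-fold higher in siGLI1 (373 ± 49.3 against 207 ± 26.0), a log2 fold change of 0.85 ± 0.17 (SE, 95% interval 0.46 to 1.24, adjusted p = 0.0162, limma). The call was lost without siGLI1 replicate 2 (0.86, adjusted p = 0.0837) and without siNT2 replicate 1 (0.83, adjusted p = 0.0787), at nearly the same size, and with the replicate number as a block (adjusted p = 0.0553). DKK3, placed in the antagonist class by its family, was the most abundant of that class per length in both groups, at 9.42 ± 1.09 in siGLI1 and 5.11 ± 0.73 in siNT2. It made up 54.4 ± 3.82% of the summed level of the class in siGLI1 and 57.8 ± 2.68% in siNT2. The sum of the class is therefore no measure of WNT inhibition.

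The remaining tested antagonists were of the SFRP family. SFRP5 had 31.3, 34.8 and 58.3 normalised reads in siGLI1 and 37.3, 48.7 and 40.7 in siNT2, overlapping, with a log2 difference of -0.07 (95% interval -0.72 to 0.58) that turned to 0.17 after GC correction. FRZB, also known as SFRP3, had 27, 22.5 and 23.7 in siGLI1 and 28.6, 31.4 and 35.9 in siNT2, apart but not past the test (-0.37, adjusted p = 0.283, limma). SFRP1 had 33.5, 20.4 and 12.8 in siGLI1 and 26.4, 10.1 and 23.1 in siNT2, a wide spread in both groups (0.16, adjusted p = 0.841, limma). Summed per length, the antagonists came to 16.6, 17.0 and 18.2 in siGLI1 and 8.73, 8.01 and 9.69 in siNT2, and without SFRP4 to 11.3, 12 and 13.7 in siGLI1 and 7.60, 7.08 and 8.64 in siNT2. The sums stayed apart without SFRP4, and also without DKK3, at 8.25, 7.63 and 7.68 in siGLI1 and 3.71, 3.58 and 3.81 in siNT2. Each of these sums still held the other called antagonist, and no sum without both was taken. SFRP4 itself averaged 4.96 RPKM in siGLI1 and 1.04 in siNT2, which is most of the gap between the sums without DKK3. The sums alone do not show whether the remaining antagonists differ between the groups. Of these, SFRP5, FRZB and SFRP1 did not pass the test, while DKK1 and DKK2, under the filter, were apart at low counts.

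Neither LRP co-receptor passed the test in limma, edgeR or DESeq2, and LRP5 had an unadjusted p under 0.05. LRP5 was the more abundant per length, at 29.1 ± 2.78 in siGLI1 and 38.4 ± 5.54 in siNT2. Its normalised counts of 2105, 2075 and 2544 in siGLI1 lay below those of 2866, 3603 and 2620.4 in siNT2, a log2 difference of -0.43 (95% interval -0.80 to -0.05) that did not pass the test (adjusted p = 0.116, limma). LRP6 had 1232, 883 and 648 in siGLI1 and 769.8, 519 and 951 in siNT2, overlapping, a log2 difference of 0.30 (95% interval -0.38 to 0.97; adjusted p = 0.525, limma).

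None of the 4 tested feedback or nuclear genes passed the test in limma or edgeR, and 1, LEF1, passed in DESeq2 and had an unadjusted p under 0.05 in limma. LEF1, a partner of beta-catenin on DNA, had 579, 549 and 460.2 normalised reads in siGLI1, against 783, 654 and 859 in siNT2. The groups did not overlap, and the log2 fold change was -0.53 (95% interval -0.91 to -0.15, adjusted p = 0.0667, limma; adjusted p = 0.0667 in edgeR and 0.0342 in DESeq2). LEF1 shares exon sequence with LEF1-AS1 on the opposite strand, which had at most 8.77 normalised reads in any library. AXIN2, a scaffold of the beta-catenin destruction complex and a common readout of canonical signalling, had 376, 332 and 303 in siGLI1 and 312, 274 and 388 in siNT2, overlapping, with a log2 difference of 0.06 (95% interval -0.35 to 0.48). ZNRF3, a ubiquitin ligase that removes Frizzled receptors from the cell surface, had 674, 581 and 516 in siGLI1 and 430.4, 389 and 624 in siNT2, also overlapping (0.31, 95% interval -0.17 to 0.80, adjusted p = 0.342, limma). TCF7, a relative of LEF1, differed by -0.01 on the log2 scale (95% interval -0.42 to 0.39). TCF7 also overlapped between the groups.

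The other 21 members averaged under 10 normalised reads. WNT7A, FZD9, SFRP2, DKK4 and NKD1 had 0 reads in all 6 libraries, which allows up to 2.39 to 3.29 normalised reads, and 12 of the 21, these included, were at or below that floor in every library. DKK2, a Dickkopf protein that binds LRP6, had 14.0, 7.16 and 9.88 normalised reads in siGLI1, from 13, 7 and 10 reads, against 2.20, 1.01 and 3.19 in siNT2, from 2, 1 and 4 reads. The groups were apart, and with no filter on low values DKK2 was higher by 1.88 on the log2 scale (adjusted p = 0.023, limma). In siNT2 replicates 1 and 2 DKK2 was under the floor, so the size of its fold is uncertain. DKK1, the LRP6 inhibitor, was apart too at low counts, with 10, 9 and 6 reads in siGLI1 and 3, 3 and 5 in siNT2. WNT10A had 10.8, 9.20 and 17.8 normalised reads in siGLI1 and 6.59, 3.04 and 3.19 in siNT2, and WNT16 had 10.8, 9.20 and 7.90 in siGLI1 and 3.29, 7.10 and 1.59 in siNT2. RNF43, the relative of ZNRF3, had 1.08, 3.07 and 1.98 normalised reads in siGLI1 and 0 in each siNT2 library, all at or under the floor, so no fold is given. More genes had reads in each siGLI1 library (20201 to 20292) than in each siNT2 library (19355 to 19735). With no filter limma called 1359 higher and 1226 lower over all genes, against 1127 and 1249 with it. Low genes were thus more often higher in siGLI1 across the table, not only among these members.

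**Figure D4:**
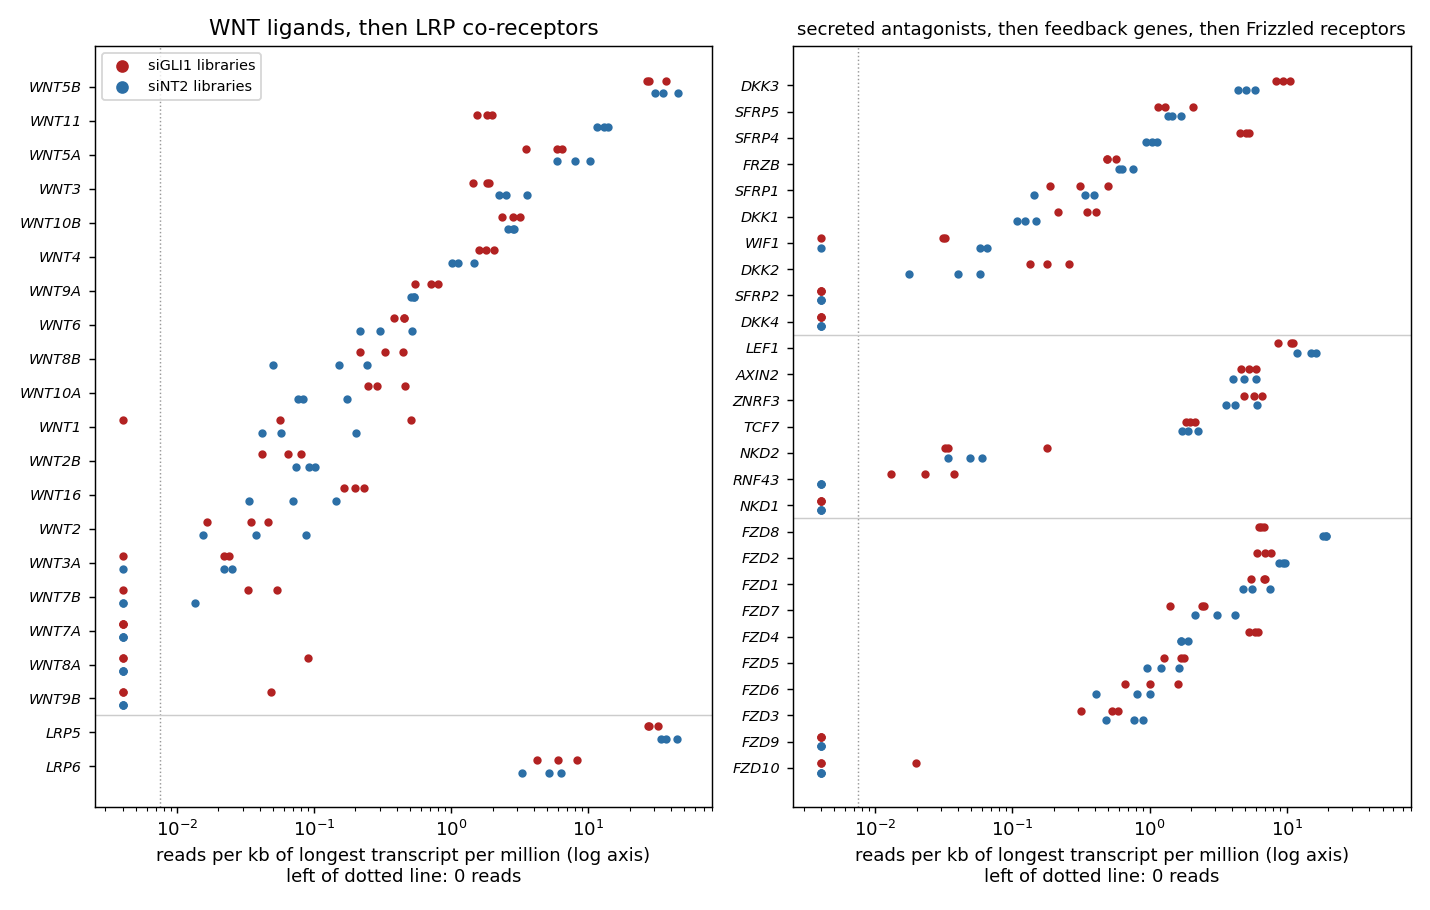
Each point is 1 library of a member, in RPKM over the longest transcript on a log axis, with siGLI1 above siNT2 in each row and libraries with 0 reads drawn left of the dotted line. WNT5B and LRP5 lie highest among the ligands and co-receptors, and the members WNT7A, FZD9, SFRP2, DKK4 and NKD1 have no reads in any library.

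The rest of the pathway was read from a list of 67 other WNT genes, of which 56 were tested, 4 were higher, 4 were lower and 48 did not pass. That is 14.3% called, near the 15.2% of all genes, with a median log2 fold change of 0.07. BCL9L, a coactivator of beta-catenin, had 261, 302 and 356 normalised reads in siGLI1, against 689.6, 885 and 707 in siNT2 (-1.31 ± 0.17, adjusted p = 0.0037, limma). It shares exon sequence with CXCR5 on the opposite strand. CTNNBIP1, which blocks the binding of beta-catenin to TCF factors, had 357, 373 and 357 in siGLI1, against 678, 733 and 683 in siNT2 (-0.94 ± 0.13, adjusted p = 0.00375, limma). These were the 2 called genes of the list that kept their call in every fit with 1 library left out.

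The planar polarity genes VANGL1 and CELSR2 were the other lower genes. VANGL1 had 456, 439.6 and 390.1 normalised reads in siGLI1 and 699, 595 and 814 in siNT2 (-0.70, adjusted p = 0.0261, limma), and lost its call without siGLI1 replicate 2, siNT2 replicate 1 or siNT2 replicate 3 (adjusted p = 0.109, 0.105 and 0.0808). CELSR2 had 270.0, 225 and 299 in siGLI1 and 455, 409 and 379.6 in siNT2 (-0.65, adjusted p = 0.0358, limma), and lost it without any of the libraries but siGLI1 replicate 3 (adjusted p = 0.0692 to 0.163). Neither was called with the replicate number as a block (adjusted p = 0.101 for VANGL1 and 0.117 for CELSR2). The groups did not overlap in either gene.

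Of the 4 higher genes, LGR5, a receptor for R-spondins and a WNT target in the intestine, had 251, 259.7 and 156 normalised reads in siGLI1 and 84.6, 66.9 and 110.0 in siNT2 (1.33 ± 0.27, adjusted p = 0.0167, limma). CSNK1G1, a casein kinase 1 of the family that phosphorylates LRP6, had 1527, 1210.4 and 943 in siGLI1 and 592, 519 and 652 in siNT2 (1.04 ± 0.20, adjusted p = 0.0142, limma). TCF7L2, a DNA-binding partner of beta-catenin, had 1687, 1866 and 1561 in siGLI1 and 1045, 1065 and 1149.9 in siNT2 (0.65 ± 0.13, adjusted p = 0.0162, limma). KREMEN1, a receptor that acts with Dickkopf proteins on LRP6, had 3061, 3159 and 3159 in siGLI1 and 2081, 2142 and 2137 in siNT2 (0.56 ± 0.11, adjusted p = 0.0154, limma). All siGLI1 libraries were above all siNT2 libraries in each of these. Every one lost its call without siGLI1 replicate 2 (adjusted p = 0.0907 for LGR5, 0.0758 for CSNK1G1, 0.102 for TCF7L2 and 0.0953 for KREMEN1) and without siNT2 replicate 1 (0.0704, 0.0631, 0.0881 and 0.0884), and KREMEN1 also without siNT2 replicate 3 (0.0502). With the replicate number as a block none of these genes was called by limma (adjusted p = 0.0594 for LGR5, 0.0504 for CSNK1G1, 0.0884 for TCF7L2 and 0.0959 for KREMEN1). CTNNB1, which encodes beta-catenin, differed by 0.04 on the log2 scale (adjusted p = 0.920, limma).

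GC content moved with the counts within each group. Across genes, the rank correlation between GC content and the deviation of a library from its group mean was -0.69, -0.31 and 0.74 in siGLI1 and -0.48, 0.69 and -0.59 in siNT2, a description over genes that share the libraries. The log2 fold change between the groups also had a rank correlation of -0.29 with GC content. The correction was fitted to deviations from the mean of all libraries, so it also removes differences between the groups that go with GC content. After correction of each library for GC content, 14489 genes were tested and the members with adjusted p under 0.05 were 4 higher and 5 lower. Over all 14489 genes, 2421 were called higher and 2330 lower, against 1127 and 1249 of 15622 without the correction. The rise in calls was thus found across the table and was not particular to the members. Among the members, WNT4 joined the higher ones, and WNT3, WNT5A and FZD3 joined WNT11 (-2.67) and FZD8 (-1.31) as lower. SFRP4 (2.15), FZD4 (1.62) and DKK3 (0.94, adjusted p = 0.00186) were higher with the correction too.

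**Figure D5:**
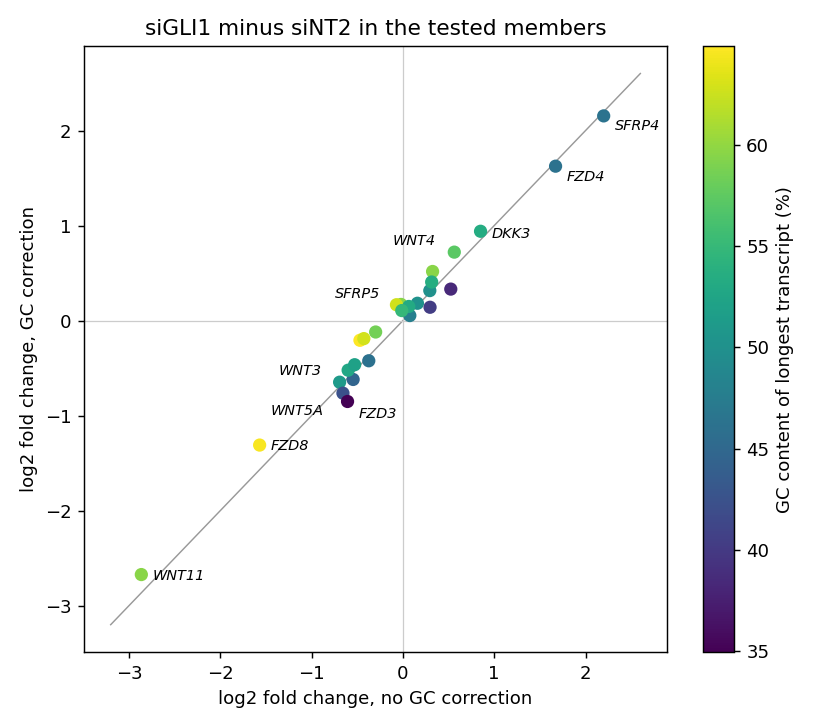
Each point is 1 tested member, with its log2 fold change (siGLI1 minus siNT2) without GC correction on the x axis and with it on the y axis, coloured by the GC content of its longest transcript, and the line marks equal values. The members with high GC content lie above the line, as FZD8 at -1.31 against -1.57, and FZD3, with the lowest GC content of those shown, lies below it at -0.85 against -0.61.

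The 3′ untranslated regions (UTRs) of the members were searched for GCACCTC, a heptamer that came from an earlier look at these data and is therefore no independent evidence. Among all tested genes with a UTR, 216 of 1205 with the heptamer were lower (17.9%) and 75 higher (6.22%), beside 821 of 11562 without it lower (7.10%) and 974 higher (8.42%). Of the tested members 3 carried it, WNT5A, WNT5B and FZD4, of which FZD4 was called, as higher. WNT11 and FZD8, the lower members, did not carry it. The sites are shown with the heptamer in capitals, from GENCODE release 29 transcripts on GRCh38.
WNT5A: ctgcaactattGCACCTCtctatttgaatt
WNT5B: cagagagatctGCACCTCccggacttcagg
FZD4: atggtgcaatgGCACCTCtgtccaacctcc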

How the data were processed

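RNA was sequenced from 6 libraries of RMS13 cells. Per the submitters' processing notes, the tools were Bowtie2 2.3.3.1, with bcl2fastq and Trim Galore 0.4.5, then Subread 1.6.4 (featureCounts) and DESeq2 2.11.40.6, on hg19. How strand and reads with several matches were treated, and the annotation, is not given in the sources used here. Since Bowtie2 makes no spliced alignments, reads over exon junctions can be lost in both groups. The authors deposited a signal table, read counts divided by 1 size factor per library. 100% of the values were whole reads within 0.01, and replicates differed by more than sampling noise.

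Symbols came from a RefSeq table for 23696 of 25702 Entrez numbers (92.2%). limma 3.58.1 (R 4.3.3, eBayes with trend) was run on log2(value + 1) for genes with a mean of 10 or more, with group as the only term and Benjamini-Hochberg adjustment over all tested genes at 0.05. The log2(value + 1) scale understates changes of low genes. Levels per length used the longest GENCODE release 29 transcript, which need not be the expressed one. Alternatives were pseudocounts of 0.5 and 8, no filter, a mean of 50, TMM scaling, edgeR 4.0.16 quasi-likelihood and DESeq2 1.42.0 on recovered reads, GC correction (lowess, span 0.3), the replicate number as a block, and leaving out each library.

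The members and lists were chosen with earlier results of these data known. Values were given for GLI1, for called members, for the 3 most abundant members of each role per length in siNT2, for members whose call changed in edgeR, DESeq2, GC correction or the block, and for up to 10 called other WNT genes by p. Other members are named after their values were seen.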

Additional observations from a re-analysis of the deposited data

How the results depend on the processing

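WNT11, FZD8, SFRP4 and FZD4 kept their direction and call in all 16 alternatives (64 of 64 values, largest adjusted p = 0.0115). Over the 27 tested members, 395 of 427 values kept direction and side of the threshold, 3 lost a call (all DKK3), 10 gained one and 19, of 6 uncalled members, changed sign. Against 3 higher members, 5 were called with no filter (DKK2 and RNF43 added). Of these DKK2 was under the floor in siNT2 replicates 1 and 2, and RNF43 was at or under it in every library. Against 2 lower members, DESeq2 called 4, GC correction 5 and the block with GC correction 4. Of the other WNT genes (4 higher, 4 lower), DESeq2 called 7 higher, GC correction 11 higher and 9 lower, and the block with GC correction 8 higher. Over all genes (1127 higher, 1249 lower), GC correction called 2421 higher and 2330 lower, the block with GC correction 1892 higher, edgeR 1182 higher and 1200 lower, and DESeq2 1645 higher and 1634 lower. Leaving out 1 library gave 283 to 1562 higher and 358 to 1705 lower over all genes, the lowest without siGLI1 replicate 2 and the highest without siGLI1 replicate 3. The counts were 414 higher with 449 lower when siNT2 replicate 1 was left out, 640 with 681 when siNT2 replicate 3 was, 711 with 795 when siGLI1 replicate 1 was, and 750 with 810 when siNT2 replicate 2 was. It gave 0 to 7 higher and 2 to 8 lower among the other WNT genes by limma, with 0 higher without siGLI1 replicate 2 or siNT2 replicate 1. The sign changed for WNT10B (0.00079 in DESeq2, 0.17 with GC correction, 0.17 with the block and GC correction), SFRP5 (0.17 in both) and TCF7 (0.11 in both). With 1 library left out the values ran from -0.14 to 0.10 for WNT10B, -0.048 to 0.25 for FZD1, -0.24 to 0.48 for SFRP1, -0.34 to 0.10 for SFRP5, -0.050 to 0.20 for AXIN2 and -0.11 to 0.11 for TCF7. Over all 16 alternatives the adjusted p ran from 0.000263 to 0.0837 for DKK3, 0.0348 to 0.172 for WNT3, 0.0206 to 0.326 for WNT4, 0.00743 to 0.31 for WNT5A, 0.0457 to 0.464 for FZD2, 0.00319 to 0.421 for FZD3 and 0.0342 to 0.206 for LEF1. A minimum mean of 50 left no value for WNT2B, WNT9A, SFRP1, SFRP5 and FRZB. The cause of these differences between settings was not tested. For members near the floor, a count of 3 reads limits what can be seen.

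Same-numbered libraries of the groups also have sample IDs that begin alike, and the labels do not say what the shared part marks. Deviations of same-numbered libraries from their group means correlated at 0.494, -0.109 and -0.614 for replicates 1, 2 and 3. With the replicate block limma called 462 higher and 508 lower over all genes, 2 higher and 2 lower members (DKK3 at 0.85, adjusted p = 0.0553), and 0 higher (6 at an unadjusted p under 0.05) and 2 lower other WNT genes (BCL9L and CTNNBIP1). The muscle markers DES and CHRNA1 and the fibroblast marker LUM lost their calls with the block (adjusted p = 0.0594, 0.0665 and 0.127).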
